A study of Homo sapiens with 6 samples.

Results

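The BTG/TOB and GADD45 genes are 2 families of small growth arrest genes, read here in RNA–Seq of SK–Hep–1 cells with knockdown of the long non-coding RNA RAB30-DT. The 8 genes followed, of 62700 in the data, are BTG1, BTG2, BTG3, TOB1 and TOB2 of the first family and GADD45A, GADD45B and GADD45G of the second, found by gene symbol. The families were selected on the TPM values of BTG2, which rose in the knockdown cells. The values of the members in this same contrast are therefore given as a description.

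SK–Hep–1 is a human line taken from a liver adenocarcinoma and described as endothelial-derived. The study compared 3 libraries of control cells with 3 libraries of cells carrying an shRNA against RAB30-DT, to learn what this RNA does in liver cancer cells. According to the methods, stable lines were made with lentiviral vectors and puromycin selection. Control libraries are titled shControl but have WT as their genotype, and which of the study's shRNAs the knockdown libraries carry is not given by the labels. Both groups are the same single line, and nothing in the labels says that the replicates were separate cultures. The p-values therefore measure the spread between these libraries, which may be technical.

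Proteins of the BTG/TOB family share a domain that binds the deadenylases CNOT7 and CNOT8 of the CCR4–NOT complex, and they bring this complex to mRNAs, shorten their poly(A) tails and slow cell growth. GADD45 proteins are small acidic proteins induced by DNA damage and other stress that bind CDK1, PCNA, p21 and the kinase MAP3K4 and act in cell cycle arrest, stress kinase signalling, and DNA repair and demethylation. In liver, GADD45B is known as a gene switched on early in regeneration, and GADD45G as one whose expression is often lost in tumours.

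Gene expression is given in TPM, a unit that corrects for gene length and gives every library the same total, so levels of different genes can be set side by side. TPM keep no read numbers, so sequencing depth is unknown and precision rests on 3 libraries per group. Between 20127 and 21675 genes were above 0 TPM in each library. Groups were compared with limma on log2(TPM + 1), and a gene was called at an adjusted p under 0.05 over the 14020 genes that averaged at least 1 TPM. RAB30-DT itself (chr11:83072052-83107789, hg38) had 18.16, 11.51 and 13.91 TPM in the control libraries and 11.94, 10.85 and 6.5 TPM in the knockdown libraries, each in the order of replicates 1, 2 and 3, as for all values that follow. Its groups overlapped, and the log2 fold change of −0.55 (standard error 0.27, adjusted p = 0.355 from limma) did not pass the threshold. An exact two-sided permutation test gave p = 0.2, where 3 libraries against 3 allow 0.1 at the lowest. The paper reports that the knockdown in this cell line was established by qPCR. Whether the sequenced cells were the ones measured by qPCR is not given by the labels. Of 8 hepatocyte markers, 4 (ALB, TTR, HNF4A and APOB) were listed at 0 in all 6 libraries, APOA1, FGB and AFP reached at most 1.63 TPM, and SERPINA1 stood at 18.11 to 23.96 TPM in control and 28.25 to 37.19 TPM in knockdown cells. Of 7 endothelial markers, PECAM1, CDH5, KDR, TEK, VWF and TIE1 reached at most 3.08 TPM, and ENG stood between 62.18 and 85.08 TPM. Of 6 mesenchymal markers, VIM (3793.03 to 4784.16 TPM), CD44, THY1 and FN1 were expressed, whereas COL1A1 was at 0.59 to 2.41 TPM and PDGFRB at 2.19 to 5.26 TPM in control and 1.02 to 1.24 TPM in knockdown cells. The summed level was 19.74 to 25.07 TPM in control and 28.66 to 38.11 TPM in knockdown cells for the hepatocyte list, 64.93 to 88.29 and 62.77 to 82.98 TPM for the endothelial list, and 4418 to 4835 and 5132 to 5658 TPM for the mesenchymal list, and their part in the members' values was not tested. In such bulk RNA, fewer cells that express a gene and less RNA per cell cannot be told apart.

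The promoters of BTG2 and BTG1 are shown because these genes had the largest fold changes among the members. The sequences are those of RefSeq on GRCh38.p14, written 5′ to 3′ along the gene from 250 bases before the transcription start to 50 bases after it. Capitals mark matches, on either strand, to the half-site TGACG of CREB and ATF factors, to the CCAAT box and to TGTTTAC, a FOXO motif, in forms that may be read as CGTCA and ATTGG on the other strand.
BTG2, chr1:203305269-203305568, plus strand: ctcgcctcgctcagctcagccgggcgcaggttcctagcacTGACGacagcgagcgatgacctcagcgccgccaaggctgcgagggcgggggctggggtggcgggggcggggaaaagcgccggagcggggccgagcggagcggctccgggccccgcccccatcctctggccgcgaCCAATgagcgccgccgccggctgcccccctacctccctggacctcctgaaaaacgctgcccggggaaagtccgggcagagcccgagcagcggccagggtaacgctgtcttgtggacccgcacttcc
BTG1, chr12:92145797-92146096, minus strand: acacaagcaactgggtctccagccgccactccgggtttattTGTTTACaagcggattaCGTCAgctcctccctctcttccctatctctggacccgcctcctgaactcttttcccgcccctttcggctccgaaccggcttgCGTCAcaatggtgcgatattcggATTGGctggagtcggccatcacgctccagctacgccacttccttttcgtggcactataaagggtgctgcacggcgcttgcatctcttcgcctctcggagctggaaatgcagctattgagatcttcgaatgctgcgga

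The BTG2 promoter held 1 TGACG, 210 bases before the start, and 1 CCAAT, 76 bases before it. The BTG1 promoter held 2 TGACG matches, 192 and 110 bases before the start, 1 CCAAT 87 bases before it and 1 TGTTTAC 209 bases before it. Of 35116 promoters of this length, 24.6% held TGACG, 34.6% CCAAT and 3.42% TGTTTAC, so a single match of the first motifs is common. The GC box GGGCGG, present in 45% of promoters, occurred 3 times in BTG2 and once in BTG1. Of the members, 7 had an entry in this table (all but GADD45A), and TOB1 had 2. A TGTTTAC was found in BTG1 and in no other of these promoters, and none held the p53 half-site, which 6.63% of all promoters did. The hypoxia motif ACGTG, in 21.4% of promoters, was found in GADD45B and GADD45G, in each as 1 palindrome read on both strands. A match is a string of letters and not a bound site. Only exact matches within these promoters were counted, so sites with a mismatch or outside them were not looked for.

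The 3′UTRs of the members ran from 440 bases in BTG3 to 3802 in BTG1, in canonical transcripts of GENCODE on hg38. BTG2 has a 3′UTR of 2164 bases, and it is the one member that holds the sequence GAGTGAA, which was counted because an earlier look at these data had drawn attention to it in genes that were lower in knockdown cells. The site is shown with 11 bases on each side, with GAGTGAA in capitals, at position 545 of the 3′UTR in the last exon of the gene.
BTG2, chr1:203307972-203308000, plus strand: tcctgggcagaGAGTGAAaaggcctctcc

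GAGTGAA occurs in 11.4% of 19195 3′UTRs, and BTG2, which carries it, was higher in knockdown cells. ATTTA, the core of AU-rich elements through which short-lived mRNAs are destabilised, occurs in 68.7% of them. It was found 5 times in BTG1, 4 times in TOB1, 3 times each in BTG3 and TOB2, 2 times each in BTG2 and GADD45A, and not in GADD45B or GADD45G.

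BTG2 and BTG1, the short members of the BTG/TOB family with proteins of 158 and 171 amino acids, had levels in each knockdown library above those of all control libraries. BTG2 (ENSG00000159388.6, chr1:203305491-203309602, plus strand), a p53 target and early response gene also known as TIS21, was at 2.45, 4.41 and 1.37 TPM in the control libraries and at 10.98, 11.12 and 11.49 TPM in the knockdown libraries. The knockdown libraries lay close together, with a coefficient of variation of 2.35%, whereas the control libraries spread widely, with one of 56.2%. The means of the control and knockdown cells were 2.74 ± 1.54 and 11.2 ± 0.264 TPM (SD, n = 3 each), a ratio of 4.08. On the log2(TPM + 1) scale, which understates changes of low genes, the difference was 1.79 (standard error 0.31). This difference led to the choice of the families, so it is a description and supports nothing. It stayed above 0 in all 17 settings tried, which include other processing and each library left out, from 1.08 with a pseudocount of 5 to 2.14 with one of 0.1.

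BTG1 (ENSG00000133639.6, chr12:92140278-92145846, minus strand), a close relative of BTG2 known for its mutation in lymphoma and for keeping T cells quiescent, was at 12.74, 9.2 and 6.63 TPM in the control libraries. In the knockdown libraries it was at 25.53, 19.05 and 18.79 TPM. Replicate 1 was the highest of each group, and the lowest knockdown library stood above the highest control library. The means were 9.52 ± 3.07 and 21.1 ± 3.82 TPM (SD, n = 3 each), a ratio of 2.22, and the log2 fold change was 1.10 (standard error 0.26) with an adjusted p of 0.0922 from limma. BTG1 thus did not pass the threshold over all genes. Its log2 fold change was between 0.86 and 1.31 in all 17 settings and passed in 5 of them, among them the fit with a replicate block (1.10, adjusted p = 0.0255) and the one without control replicate 1 (1.31, adjusted p = 0.0308).

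**Figure D1:**
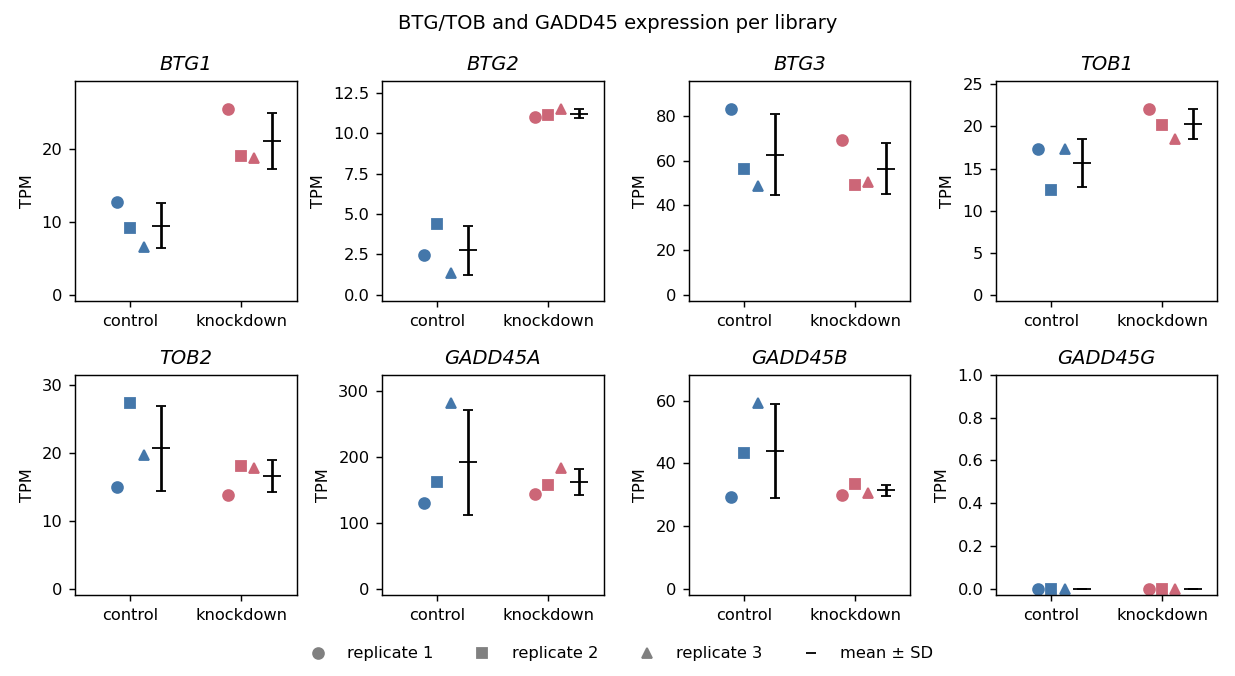
Gene expression in TPM (vertical axes, each from 0) of the 8 members in the 3 control and the 3 knockdown libraries, with the replicate number as the marker shape and the mean ± SD beside the points. BTG1, BTG2 and TOB1 do not overlap between the groups, BTG3, TOB2, GADD45A and GADD45B do, and GADD45G is at 0 throughout.

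BTG3 and the TOB genes had smaller differences. BTG3 (ENSG00000154640.15, chr21:17593653-17612945, minus strand), also called ANA, was the highest of the BTG/TOB genes, with 83.1, 56.11 and 48.84 TPM in the control libraries and 69.43, 49.13 and 50.39 TPM in the knockdown libraries. In both groups replicate 1 was the highest, and the knockdown values lay inside the range of the control values. The log2 fold change of −0.13 (standard error 0.24) turned to 0.09 without control replicate 1.

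TOB1 (ENSG00000141232.5, chr17:50862223-50867978, minus strand), which together with TOB2 forms the long-tailed branch of the family that also binds poly(A)-binding protein, was at 17.35, 12.43 and 17.34 TPM in control and at 22.08, 20.2 and 18.49 TPM in the knockdown libraries. The groups did not overlap, but by a narrow margin, since the lowest knockdown value was 18.49 and the highest control value 17.35 TPM. The means were 15.7 ± 2.84 and 20.3 ± 1.80 TPM (SD, n = 3 each), and the log2 fold change of 0.36 (standard error 0.20, adjusted p = 0.405 from limma) became 0.21 without control replicate 2. TOB2 (ENSG00000183864.5, chr22:41433494-41446801, minus strand) was at 14.92, 27.38 and 19.7 TPM in control and at 13.84, 18 and 17.81 TPM in the knockdown libraries. Its groups overlapped, control replicate 2 stood above the other libraries, and the log2 fold change was −0.27 (standard error 0.25), or −0.06 without that library. TOB1 and TOB2, which are close in sequence and function, thus had fold changes of opposite sign, neither past the threshold.

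BTG4, the remaining human member of the family and one known from oocytes, was between 0.39 and 1.28 TPM and too low to be tested. Genes that overlap a member or start beside it were low: TOB1-AS1, BTG1-DT and LINC01619 were at most at 0.52 TPM, BTG3-AS1 at most at 1.13 TPM, and BTG2-DT was listed at 0 in all libraries. The library protocol in the labels names no step that marks strand, so reads of a member and of an antisense partner cannot be told apart, but these levels are far below those of BTG1, BTG3 and TOB1.

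Of the GADD45 genes, 2 were expressed in SK–Hep–1 cells and 1 was listed at 0. GADD45A (ENSG00000116717.13, chr1:67685201-67688334, plus strand), the p53-responsive member of the family, was the highest of all 8 genes, with 130.4, 161.96 and 282.26 TPM in the control libraries and 143.88, 157.78 and 182.77 TPM in the knockdown libraries. In each group replicate 3 was the highest, and all knockdown values lay inside the range of the control values. Its log2 fold change was −0.17 (standard error 0.27), but quantile normalization gave 0.02 and leaving out control replicate 3 gave 0.14, so its sign was not stable.

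GADD45B (ENSG00000099860.9, chr19:2476122-2478259, plus strand), the member induced by TGF-β and NF-κB, was at 29.4, 43.28 and 59.41 TPM in control and at 30.05, 33.47 and 30.71 TPM in the knockdown libraries. Again the knockdown libraries lay within the range of the control libraries, with control replicate 3 the highest. The means were 44.03 ± 15.0 and 31.4 ± 1.81 TPM (SD, n = 3 each), and the log2 fold change of −0.42 (standard error 0.25) was −0.18 without control replicate 3 and −0.68 without control replicate 1. GADD45G (ENSG00000130222.11, chr9:89605012-89606555, plus strand) was listed at 0 TPM in all 6 libraries, and no fold change can be given.

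Counted over the members, 7 of 8 had a mean of at least 1 TPM and were tested, 1 of them (BTG2, on which the families were selected) had an adjusted p under 0.05, and 0 were called lower. The count was 0 without control replicate 2, without any 1 knockdown library or with no filter on low values, and 2 without control replicate 1. Over all 14020 genes tested 1.04% were called, 0.371% as higher and 0.67% as lower in knockdown cells. Adjusted p of the other 6 tested members ranged from 0.0922 (BTG1) to 0.821 (BTG3) in limma. All 3 members above 0 (BTG1, BTG2 and TOB1) were without overlap of the groups, and 0 were without overlap and below 0. Of all genes tested, 23.3% had groups without overlap, 9.89% with higher and 13.4% with lower values in knockdown cells. The median log2 fold change of the 7 was −0.13, beside −0.04 over all genes. Nothing is read from these counts, since this contrast chose the families.

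**Figure D2:**
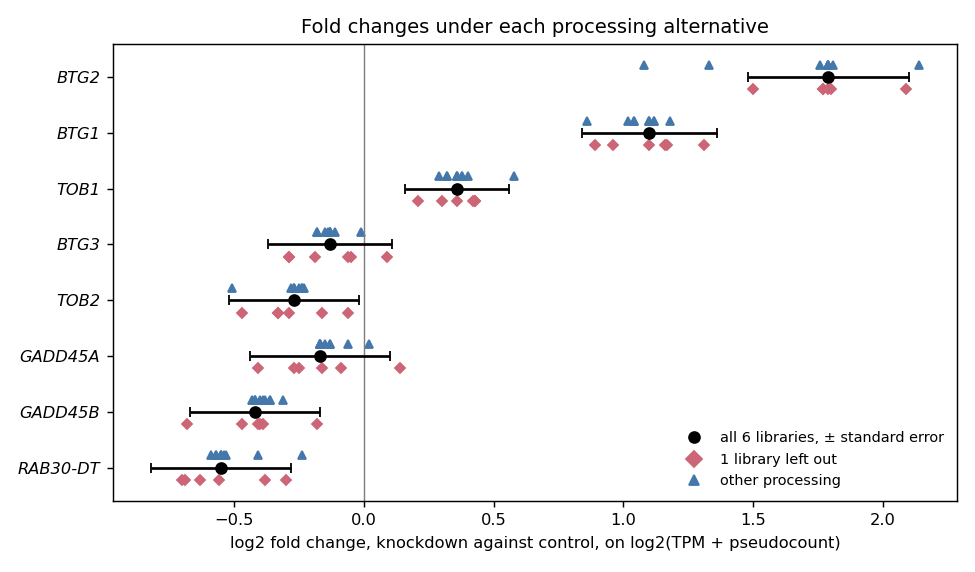
Log2 fold changes of the 7 tested members and RAB30-DT (horizontal axis, knockdown against control) with all 6 libraries (black points, ± standard error), with 1 library left out (red diamonds) and with other processing (blue triangles). BTG2 and BTG1 stay at or above 0.86 in all settings, TOB1 stays above 0, and BTG3 and GADD45A have points on both sides of 0.

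The order of the members' levels differed between the groups in its lower part. In control cells it ran from GADD45A (mean 191.5 TPM) over BTG3 (62.7), GADD45B (44.03), TOB2 (20.7), TOB1 (15.7) and BTG1 (9.52) to BTG2 (2.74 TPM). The ranges of BTG3 and GADD45B, of TOB2 and TOB1 and of TOB1 and BTG1 overlapped, and no test of these orders was run. Within each control library TOB1 was above BTG1 (17.35 against 12.74, 12.43 against 9.2 and 17.34 against 6.63 TPM). For BTG3 and GADD45B and for TOB2 and TOB1, the order varied between the control libraries. In knockdown cells the first 3 were the same, followed by BTG1 (21.1), TOB1 (20.3), TOB2 (16.6) and BTG2 (11.2 TPM), where only BTG1 and TOB1 overlapped. BTG1 thus had the second lowest mean among the 7 expressed members in control cells and the fourth highest in knockdown cells.

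Control replicate 3 stood apart in a way that touches the GADD45 genes. Immediate early genes, which cells switch on within minutes of serum, stress or handling, were highest in this library in 18 of 20 tested cases, against 20.3% of all genes tested. FOS was at 411.45 TPM there and at 22.24 and 29.84 TPM in the other control libraries, and the summed level of the list was 5080 TPM, against 2148 and 2656 TPM in the other control libraries and between 2229 and 2530 TPM in knockdown libraries. GADD45A and GADD45B, themselves stress-induced, were also highest in control replicate 3, whereas BTG1, BTG2 and BTG3 were at their lowest there. Without this library the log2 fold change of BTG2 was 1.5 and that of BTG1 0.89. Of the list, 0 of 20 genes were called with all libraries, at a median of −0.50. An unadjusted p under 0.05 in limma was found for 2 of the 20, beside 16.8% of all genes tested. The lowest p belonged to FOSB (−4.04, adjusted p = 0.18), FOS (−2.59, adjusted p = 0.225) and IER2 (−0.81, adjusted p = 0.405). Without control replicate 3 the median was 0.03, and FOS (−1.28, adjusted p = 0.0456 from limma) and FOSB (−2.21, adjusted p = 0.0303) were called lower. The part of this library's state in the members' values beyond these figures was not tested.

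**Figure D3:**
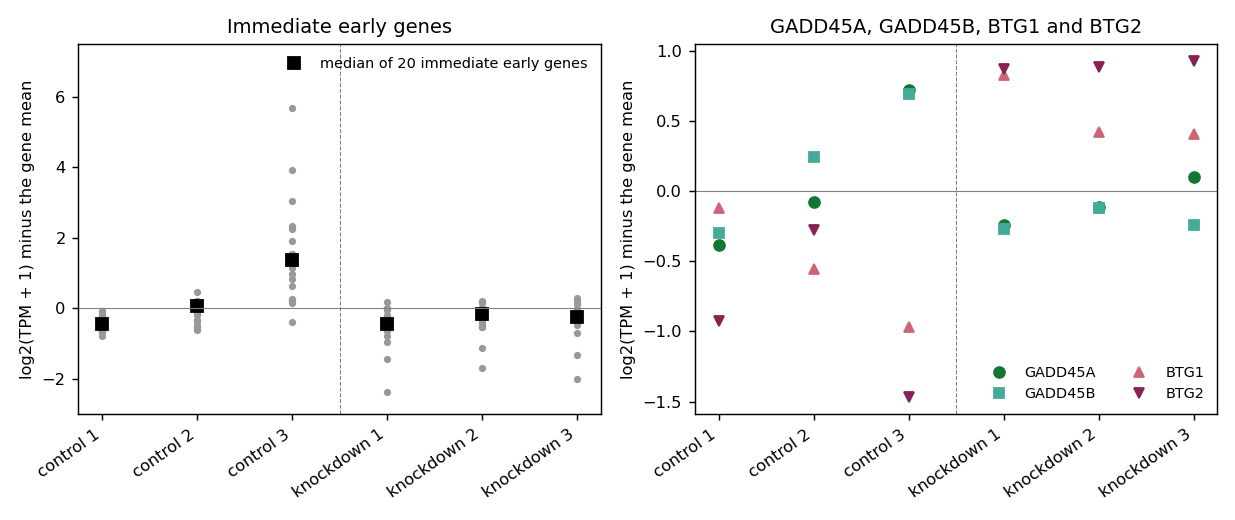
Log2(TPM + 1) of each gene minus its mean over the 6 libraries (vertical axes, one column per library), for 20 immediate early genes with their median as black squares (left) and for GADD45A, GADD45B, BTG1 and BTG2 (right). Of the immediate early genes 18 of 20 are highest in control replicate 3, as are GADD45A and GADD45B, and BTG1 and BTG2 are lowest there.

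The partners of the BTG/TOB proteins were expressed, and none was called. All 17 listed subunits of the CCR4–NOT and PAN2–PAN3 deadenylases, poly(A)-binding proteins and PRMT1 were tested, and limma called 0 of them. An unadjusted p under 0.05 was found for 1 of the 17, beside 16.8% of all genes tested. Groups did not overlap in 1 partner with higher and 3 with lower values in knockdown cells, beside 9.89% and 13.4% of all genes tested. The median log2 fold change of the 17 was 0.08, beside −0.04 over all genes, and was −0.08 without control replicate 3. CNOT7 and CNOT8, the deadenylases that BTG and TOB proteins bind, had log2 fold changes of 0.09 and 0.06 (standard errors 0.29 and 0.18). PRMT1, an arginine methyltransferase that BTG1 and BTG2 bind, was at 339.79, 424.48 and 575.96 TPM in control and at 261.76, 273.31 and 294.92 TPM in the knockdown libraries. These groups did not overlap, and the log2 fold change of −0.66 (standard error 0.20) had an adjusted p of 0.152, which became 0.0382 without control replicate 1 (−0.84) and 0.0449 with a replicate block, and PRMT1 passed in 5 of 17 settings. The next lowest p belonged to CNOT3, a non-catalytic subunit of CCR4–NOT (−0.41, adjusted p = 0.303), and PABPC1, the main poly(A)-binding protein (0.46, adjusted p = 0.304), each of which passed in 1 of 17 settings, with arrayWeights.

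Among the partners of the GADD45 proteins, 12 of 13 were tested, 1 rose and 1 fell, at a median of −0.20. An unadjusted p under 0.05 in limma was found for 4 of the 12, beside 16.8% of all genes tested. Groups did not overlap in 2 partners with higher and 3 with lower values in knockdown cells, beside 9.89% and 13.4% of all genes tested. CDKN1A, which encodes the CDK inhibitor p21 and is also a p53 target, rose from 73.92, 122.13 and 87.28 TPM in control to 232.09, 282.8 and 402.34 TPM in the knockdown libraries (log2 fold change 1.68, standard error 0.25, adjusted p = 0.0293 from limma). AURKA, a mitotic kinase inhibited by GADD45A, fell from 148.79, 149.62 and 173.91 TPM to 77.5, 73.6 and 74.97 TPM (−1.05, standard error 0.14, adjusted p = 0.0252). Neither gene overlapped between the groups. The CDKN1A call was lost without control replicate 2 or 3 or any 1 knockdown library (adjusted p from 0.0585 to 0.153), and the AURKA call without control replicate 2 or any 1 knockdown library (0.101 to 0.153). The log2 fold changes in these fits were 1.46 to 1.88 for CDKN1A and −1.08 to −1.03 for AURKA. Over all genes, 12 to 18 were called without control replicate 2 or any 1 knockdown library, against 146 with all 6 libraries. The cell cycle partners PCNA and CCNB1 had values of −0.56 and −0.49, with adjusted p of 0.104 and 0.151 and groups that did not overlap. Both passed in 4 of 17 settings, where adjusted p were 0.0384 and 0.0473 (replicate block), 0.0144 and 0.0263 (GC trends removed), 0.0312 and 0.038 (both) and 0.011 and 0.0232 (arrayWeights). MAP3K4, the stress kinase kinase that GADD45 proteins activate, was at −0.34 (adjusted p = 0.539).

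BTG2 and GADD45A belong to the p53 response, and other p53 target genes were read beside them. Of 26 listed genes, all were tested, 1 rose (CDKN1A, above), 1 fell, and 12 had an unadjusted p under 0.05, as did 2350 of all 14020 genes (16.8%). A log2 fold change above 0 was found in 21 of 26, where 46.3% of all genes tested were above 0, and the median was 0.48, between 0.41 and 0.57 in all settings. Groups did not overlap in 11 genes with higher and in 1 gene with lower values in knockdown cells, beside 9.89% and 13.4% of all genes tested. The gene that fell was PLK2, a polo-like kinase, from 470.17, 459.19 and 547.43 TPM to 226.34, 221.64 and 170.04 TPM (−1.26, standard error 0.16, adjusted p = 0.024). That call was lost without control replicate 2 or any 1 knockdown library (adjusted p from 0.0751 to 0.0995), with log2 fold changes from −1.33 to −1.13. Without control replicate 1 there were 7 called genes, without control replicate 3 only PLK2, and 0 without any 1 of the other libraries.

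Of 16 listed FOXO target genes, 13 were tested and 1 rose, at a median of 0.14. This was TXNIP, an arrestin that limits glucose uptake, which went from 28.28, 21.95 and 19.41 TPM to 171.25, 154.54 and 107.34 TPM (2.58, standard error 0.23, adjusted p = 0.00477) and was called with any 1 library left out. Without control replicate 1 there were 3 called genes. Of the 13 tested, 7 had an unadjusted p under 0.05 in limma, beside 16.8% of all genes tested. Groups did not overlap in 6 genes with higher and in 1 gene with lower values in knockdown cells, beside 9.89% and 13.4% of all genes tested. Of the 12 genes in the ATF4 and CHOP stress list, which holds ATF4 and DDIT3 (CHOP) themselves, 1 rose, at a median of 0.28. This was DDIT4, an mTORC1 inhibitor, from 76.22, 110.86 and 55.94 TPM to 189.12, 250.27 and 209.23 TPM (1.45, standard error 0.25, adjusted p = 0.0433 from limma). The DDIT4 call was lost without control replicate 2 or 3 or any 1 knockdown library (adjusted p from 0.0541 to 0.204), with log2 fold changes from 1.22 to 1.7. Of these 12 genes, 3 had an unadjusted p under 0.05 in limma, beside 16.8% of all genes tested. Groups did not overlap in 3 with higher and in 2 with lower values, the latter ATF4 (−0.22) and XBP1 (−0.37). The shares over all genes tested were 9.89% and 13.4%. CDKN1A, KLF6, SESN1 and SESN2 stand in 2 of the lists each.

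**Figure D4:**
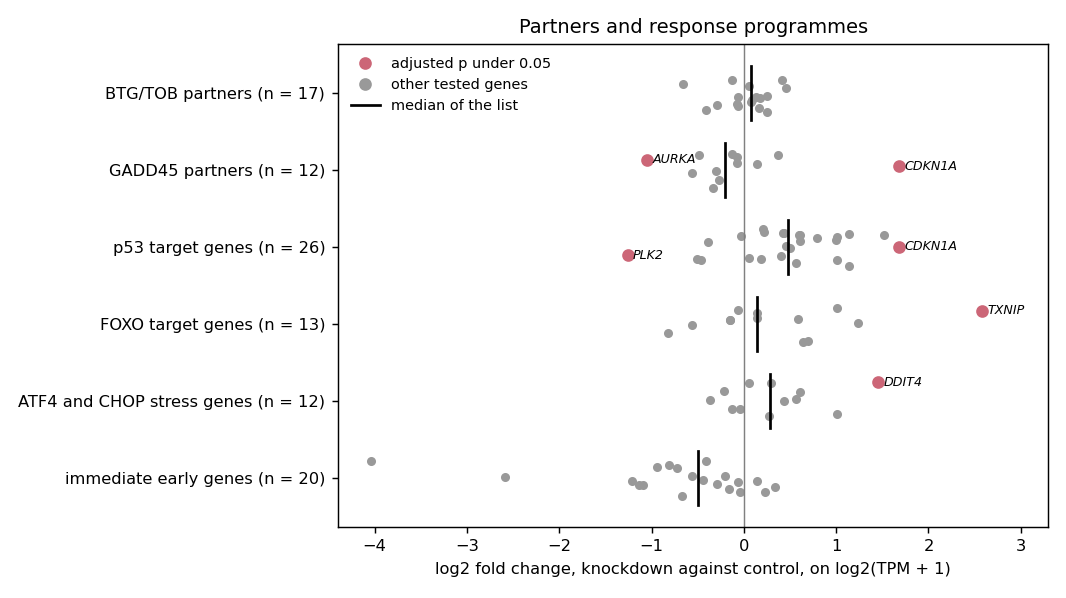
Log2 fold changes (horizontal axis, knockdown against control) of the tested genes of 6 lists, with the genes called at an adjusted p under 0.05 in red and named, and the median of each list as a vertical bar. The p53 targets have a median of 0.48, the immediate early genes one of −0.50, and the remaining medians lie between −0.20 and 0.28.

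The genes whose profile over the 6 libraries was nearest to that of BTG2 were DDIT4, CHPF, GDF15, SLC37A2 and ORAI3. Nearness was the root mean square difference of log2(TPM + 1), each gene centred on its own mean, which was 0.214 for DDIT4 and 0.265 for ORAI3. GDF15, a secreted stress factor and p53 target, was at 31.71, 59.57 and 34.48 TPM in control and at 109.16, 125.4 and 157.25 TPM in the knockdown libraries. Like BTG2, it was highest in replicate 2 within the control group. SLC37A2, a sugar phosphate transporter with a level close to that of BTG2, was at 2.13, 3.89 and 1.07 TPM and at 5.69, 7.79 and 8.43 TPM, so its control libraries stood in the same order as those of BTG2. These genes were picked for their likeness to BTG2 in the same libraries. The order of their control libraries and their differences between the groups are therefore set by that choice. No test of them as neighbours of BTG2 is drawn on here, and that of DDIT4 above was given for its place in the ATF4 and CHOP list.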

How the data were processed

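RNA–Seq libraries of SK–Hep–1 cells, 3 control and 3 knockdown, were made after poly(A) selection. The files the authors deposited hold 1 TPM value per gene, given to 2 decimals. The methods name fastp, STAR, samtools and RSEM, whereas the submitters' processing notes list fastp and HISAT2 2.0.5 with hg38, so the aligner is uncertain. RSEM shares reads between near-identical genes by estimate. All 62700 versioned gene identifiers matched GENCODE Release 44, used here for names, positions and 3′UTRs, although the methods name a later release.

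Values were analysed as log2(TPM + 1) without further normalization in R 4.3.3 with limma 3.58.1 (lmFit, eBayes with trend, two-sided), for the 14020 genes that reached 1 TPM on average, with Benjamini–Hochberg adjustment over these genes and a threshold of 0.05. Of them 146 were called, 52 higher and 94 lower, which was 60 and 69 with median-of-ratios scaling and 78 and 83 with quantile normalization. With 200 changed genes in data simulated for this comparison, the fit recovered 0 of 200 at a log2 change of 1 (13773 genes tested). At a log2 change of 2 it recovered 166 of 200 (83%, 13771 genes tested). These figures set no limit of detection, since limma called measured genes with changes smaller than 1. Among them were RPL10 (0.50, adjusted p = 0.0491), RPS25 (0.54, adjusted p = 0.0417), TUBA1B (−0.69, adjusted p = 0.0285) and GAS5 (0.87, adjusted p = 0.024). How far the recovery holds for measured genes was not tested.

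The members and lists were chosen with earlier results of these data known. Named were the members, RAB30-DT, BTG4, the 5 tested genes nearest to BTG2 in profile, and of each partner and target list the called genes (at most 4) or, with none called, the 3 with the lowest p. Genes named beside these, for their role or in the checks of cell type markers, control replicate 3 and overlapping genes, were chosen after their values were seen. Alternatives were other pseudocounts (0.1 or 5), other filters (none or 5 TPM on average), quantile normalization or scaling by medians of ratios, arrayWeights, a replicate block, removal of GC trends (loess, span 0.3), and each library left out. Deviations from the group means correlated by 0.41, 0.0359 and 0.279 for replicate numbers 1, 2 and 3, all above 0. The sample titles give a number and no pairing, so the main fit took no pairs, and the replicate block shows the fit with them. Promoters and 3′UTRs were searched in Python 3.11.15 on both strands and on the transcript strand, respectively. The p53 half-site was 3 purines, C, 2 of A or T, G and 3 pyrimidines. Splicing was not analysed here.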

Additional observations from a re-analysis of the deposited data

How the results depend on the processing

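Counts of called genes depended on the processing. Against 146 genes, arrayWeights gave 3218, the fit with no filter 13, and 861 were called with a replicate block, 1370 with the GC trend removed, 1164 with both, and with 1 library left out between 12 (no control replicate 2) and 489 (no control replicate 1). Of the members, where BTG2 was the 1 called, 0 were called without a filter, 3 with arrayWeights, 2 with the replicate block, 2 with the GC trend removed, 2 with both, and from 0 to 2 with 1 library left out. In the same order, for arrayWeights, the replicate block, the GC trend removed, and both, the counts were 4, 1, 1 and 1 for the BTG/TOB partners (0 in the report, 0 to 1 with 1 library left out), 4, 4, 5 and 4 for the GADD45 partners (2 in the report, 0 to 2), 14, 8, 12 and 12 for the p53 targets (2 in the report, 0 to 7), 7, 3, 5 and 4 for the FOXO targets (1 in the report, 1 to 3), and 5, 2, 2 and 3 for the ATF4 and CHOP genes (1 in the report, 0 to 1). Without the filter, the counts were 0 for GADD45 partners, 0 for p53 targets and 0 for ATF4 and CHOP genes. Of the immediate early genes 3 were called with arrayWeights, and 0 to 2 with 1 library left out. The cause of these shifts was not tested.

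BTG3 changed sign without control replicate 1 (0.09), with a range from −0.29 to 0.09 over single libraries left out. GADD45A changed sign without control replicate 3 (0.14, in a range from −0.41 to 0.14) and under quantile normalization (0.02). BTG1, BTG2, TOB1, TOB2, GADD45B and RAB30-DT kept their sign in all 17 settings. TOB1 passed the threshold with arrayWeights alone (0.58, adjusted p = 0.0191 in limma). With the replicate block, BTG1 was called (1.10) and no other call of a member changed. Of the libraries, 4 of 6 deviated most like the one with their own number. That count was not tested against chance, and the correlation for replicate number 2 was 0.0359. The TPM keep no read number, so a depth limit cannot be given.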

Other observations

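Genes nearest in profile to BTG1, chosen after the values were seen, were CDK17, BACH1, CCRL2, FLG-AS1 and DNAJB9, with root mean square differences from 0.0757 to 0.0849. For DDIT4, the gene nearest to BTG2, the difference was 0.214. These differences are not scaled for how much a gene varied, so they do not rank likeness between BTG1 and BTG2. The coefficient of variation in control libraries was 32.2% for BTG1 and 56.2% for BTG2. CDK17, a kinase of the PCTAIRE group, was at 37.59, 26.15 and 19.4 TPM in control and at 77.88, 58.09 and 59.37 TPM in the knockdown libraries. BACH1, a repressor of haem oxygenase and other antioxidant genes, was at 22.17, 14.56 and 12.27 TPM in control and at 39.15, 33.14 and 31.09 TPM in the knockdown libraries. Like BTG1, both were highest in replicate 1 of each group. Since they were picked for their likeness to BTG1 in the same libraries, this order and their differences between the groups are set by that choice.

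TOB2P1, a processed copy of TOB2 on chromosome 6 (chr6:28217643-28218634, hg38, minus strand), was at 1.27, 2.55 and 1.8 TPM in control and at 5.76, 5.71 and 3.21 TPM in the knockdown libraries. The groups did not overlap, with higher values in knockdown cells, as in 9.89% of all genes tested. The log2 fold change of 1.03 (standard error 0.30, adjusted p = 0.148 from limma) did not pass the threshold, and TOB2 itself had −0.27. Reads of TOB2 and of its copy may be shared between them by the quantification, so both values are uncertain to that extent. The copies BTG1P1 and BTG3P1 were listed at 0 TPM in all 6 libraries.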
